A study of Mus musculus with 6 samples.

Results

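The galectin genes of mouse spinal cord described here are Lgals1, Lgals3 and Lgals9, together with Lgals3bp, whose product binds galectins. They were chosen by symbol: a probe set counted when the array's annotation gave it exactly 1 gene symbol and that symbol was 1 of these 4. This gave 5 of 12422 probe sets for 4 of 8251 genes. Lgals9 has 2 probe sets, and the one with the higher mean stands for the gene. All 5 probe sets passed the filter on level, 5 of 6737 that did, and the 1 of Lgals3 passed it only through the array on which it was high.

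Galectins are soluble lectins that bind sugar chains ending in beta-galactosides. They are made in the cytosol without a signal peptide, leave the cell by an unconventional route and cross-link glycoproteins on cell surfaces, and inside the cell they gather on damaged lysosomes. Galectin-1, the product of Lgals1, is a dimer with 1 sugar-binding site per chain, and in nervous tissue it is known from astrocytes and from motor and sensory neurons. Galectin-3, the product of Lgals3, joins such a site to a tail through which it forms clusters, and it is best known from macrophages and activated microglia. Galectin-9, the product of Lgals9, carries a pair of linked sugar-binding sites and is a ligand of the T cell receptor Tim-3. The product of Lgals3bp is itself no galectin: it is a secreted glycoprotein with a scavenger receptor domain that galectins bind.

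Messenger RNA was measured on 6 Affymetrix oligonucleotide arrays, 1 per genotype and age. The G93A-SOD1 mice carried the SOD1 transgene with the G93A change known from familial amyotrophic lateral sclerosis, at 75 days (strain label B6SJL-G93A-SOD1), when the submitters call them presymptomatic, and at 110 days (strain label B6SJL-G93A-SOD1H), when they shook and were partly paralysed. The WT-SOD1 mice had a transgene of wild-type SOD1 and stayed free of disease at 75 and 110 days. Their strain label is B6SJL-WT-SOD1 at 75 days and is empty at 110 days. The nontransgenic mice, of strain B6SJL, carried no transgene and were also taken at 75 and 110 days. Each array held poly(A) RNA of 4 pooled cords and was hybridised once. Of sex, transgene promoter and copy number the sources used here say nothing. The WT-SOD1 and nontransgenic arrays are called disease-free below, and an age then has 2 disease-free arrays and 1 G93A-SOD1 array.

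Intensity is the deposited linear value of a probe set. Before log2 was taken, lower values were set to a floor of 31, the 25th percentile of the table, and values at the floor are not ranked. The test covered the probe sets with 1 or more arrays above 79.7, the median of all values. Differences were tested with limma across 6737 probe sets with Benjamini-Hochberg adjustment at 0.05, and SE is the moderated standard error. No genotype has a replicate at either age, so p-values measure the spread between disease-free arrays of different genotype, and the single G93A-SOD1 array of an age was taken to vary as they do. The number of arrays limits the precision.

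The arrays were close in overall level, with medians between 77.7 and 80.9. At 110 and 75 days Sod1, the gene whose transgene sets the groups apart, read 1716 and 1738 in G93A-SOD1 cord, 1906 and 1583 in WT-SOD1 cord, and 1498 and 1037 in nontransgenic cord, lowest in the last. Hox genes that mark the position of spinal cord summed to between 2256 and 2611 on every array, and neuronal markers were read on all of them. The ratio of 3' to 5' signal of Gapdh was between 1.08 and 1.49. For Actb this ratio was between 1.69 and 2.39, highest on the nontransgenic 110-day array. On the WT-SOD1 110-day and nontransgenic 75-day arrays 10 markers of cerebellum summed to 3733 and 3191. They summed to 2106 on the nontransgenic 110-day array and to 1621 on the WT-SOD1 75-day array. Both G93A-SOD1 arrays were lower, with 1251 at 110 days and 1234 at 75 days. The median log2 difference of the 8 tested markers, G93A-SOD1 minus disease-free, was -1.25 at 110 days and -0.71 at 75 days, and none passed. Bacterial spike-in controls averaged 1590 on the WT-SOD1 110-day and 1198 on the nontransgenic 75-day array, against 645 to 850 on the other 4 arrays. Results at 110 days are therefore also given for the 4 arrays with lower cerebellar markers alone. Among these the G93A-SOD1 arrays are still the lowest, and the disease-free side is 1 mean of both ages.

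At 110 days, when the G93A-SOD1 mice were ill, Lgals1 rose 2.26-fold and Lgals3bp 1.97-fold in G93A-SOD1 cord. Lgals9 was 1.31-fold higher and did not pass the test. Lgals3 was read above the floor on the G93A-SOD1 array alone, at least 2.67-fold higher there. It is left out of the counts of genes past the test, since the filter admitted it through that array only, and 2 of the other 3 genes passed. Over all probe sets 1.51% passed (102 of 6737) and 1.38% rose, and the median log2 difference was -0.02. The 110-day G93A-SOD1 array lay above all 4 disease-free arrays for each of Lgals1, Lgals3bp and Lgals9, as it did for 16.9% of the tested probe sets. The cords were bulk tissue, in which more cells of a type and more RNA per cell cannot be told apart.

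Lgals1 read 762 on the G93A-SOD1 array at 110 days and 289 at 75 days. It read 327 and 319 on the WT-SOD1 arrays at 110 and 75 days, and 349 and 331 on the nontransgenic arrays. The 110-day G93A-SOD1 array thus stood alone at the top, 2.18-fold above the highest disease-free value, and the 4 disease-free arrays averaged 331 ± 12.8 (SD, n = 4). Against the disease-free arrays of 110 days the log2 difference was 1.17 ± 0.13 SE (95% interval 0.86 to 1.49, adjusted p = 0.00744), the 60th largest of all. In the order of levels the step below the top was 1.13 log2 units, and every later step was smaller than 0.15, the standard deviation of a difference between 2 arrays.

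Lgals3 read 82.8 on the G93A-SOD1 array at 110 days and 16.4 at 75 days. It read 14.8 and 13.6 on the WT-SOD1 arrays at 110 and 75 days, and 12.6 and 12.8 on the nontransgenic arrays. Only the 110-day G93A-SOD1 array was above the floor of 31, and the other 5 have no order among themselves. The difference is therefore a lower bound, at least 2.67-fold (log2 difference of floored values 1.42 ± 0.13 SE, adjusted p = 0.00339). Lgals3 entered the test through this 1 array, which exceeded the pooled median by little, so a difference had to be found and the p-value is no independent support. With no filter on level the same difference had an adjusted p of 0.00278 by limma, at an SE of only 0.0028. The disease-free arrays of Lgals3 were all at the floor and showed no spread of their own. In both fits the SE therefore comes from the spread pooled over probe sets, and the p-value without the filter is no independent support either.

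Lgals3bp read 168 on the G93A-SOD1 array at 110 days and 89.3 at 75 days. It read 84.0 and 90.6 on the WT-SOD1 arrays at 110 and 75 days, and 86.1 and 88.0 on the nontransgenic arrays. The 110-day G93A-SOD1 array again stood apart, while the remaining 5 arrays lay within 84.0 to 90.6 and none of the steps between them exceeded the spread. The log2 difference at 110 days was 0.98 ± 0.13 SE (95% interval 0.67 to 1.29, adjusted p = 0.0138), which was 86th from the top.

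Lgals9 read 182 on the G93A-SOD1 array at 110 days and 151 at 75 days. It read 153 and 156 on the WT-SOD1 arrays at 110 and 75 days, and 127 and 147 on the nontransgenic arrays. The 110-day G93A-SOD1 array lay above all 4 disease-free arrays, as it did for 16.9% of the tested probe sets. The step to the next lower array was only 0.23 log2 units, and the lowest array, nontransgenic at 110 days, lay nearly as far below the rest (0.21). The standard deviation of a difference between 2 arrays was 0.18 for this gene. The log2 difference was 0.39 ± 0.16 SE (95% interval 0.02 to 0.76, adjusted p = 0.461). Of the alternatives run, it passed only in the one that left out the WT-SOD1 110-day array, at 0.52 (adjusted p = 0.0472). The other Lgals9 probe set, of a kind that can cross-hybridise, read 134 in G93A-SOD1 cord at 110 days and 127 at 75 days, against 118 and 125 in WT-SOD1 cord and 117 and 114 in nontransgenic cord. Both G93A-SOD1 values lay above the disease-free ones, by less than the spread. Its log2 difference at 110 days was 0.19 ± 0.14 SE (adjusted p = 0.804).

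**Figure D1:**
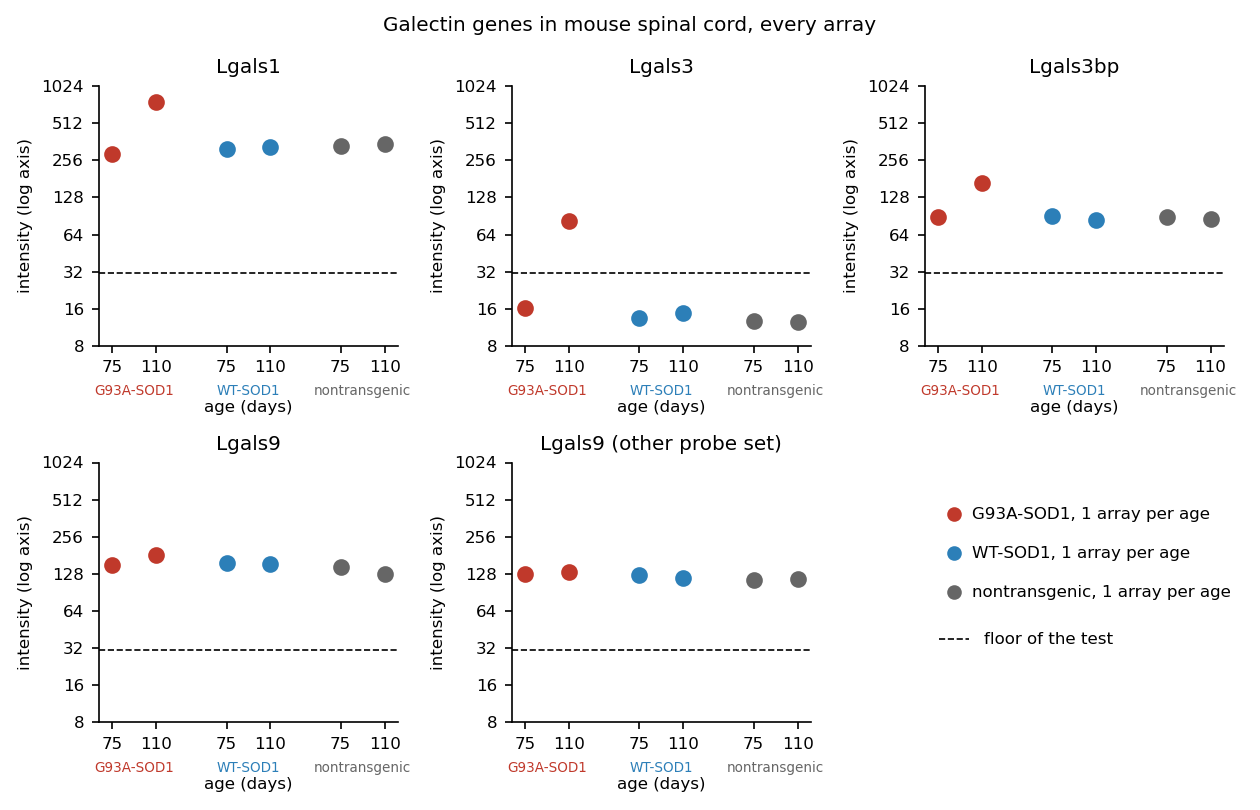
Deposited intensity of each galectin probe set (vertical log axis) on the 6 arrays, by genotype and age in days, 1 point per array, with the floor of 31 as a dashed line. Lgals1, Lgals3 and Lgals3bp were highest on the G93A-SOD1 array at 110 days (762, 82.8 and 168), and Lgals3 was under the floor on the other 5 arrays.

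On the 4 arrays with low cerebellar markers, a choice made after seeing the data, the log2 differences at 110 days were 1.19 for Lgals1, at least 1.42 for Lgals3, 0.93 for Lgals3bp and 0.37 for Lgals9, of which Lgals1 and Lgals3bp passed among the 3 genes counted. The filter and the floor changed calls. With no filter on level Lgals1 (adjusted p = 0.135) and Lgals3bp (0.0696) no longer passed, so that 0 of the 3 did. With a floor at the 40th percentile Lgals3 stood at 0.55 (adjusted p = 0.166), and with a filter on the mean level Lgals3 was not tested.

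Promoters are printed for the 3 members whose sequence was at hand, Lgals3, Lgals3bp and Lgals9. For Lgals1, which was high on the same array as Lgals3 and Lgals3bp, none was at hand. Each window runs from 250 bases before to 50 after the annotated start of the RefSeq gene of build GRCm38.p6. It is given 5′ to 3′ on the strand of the gene. The windows are chr14:47373610-47373909 on the plus strand for Lgals3, chr11:118401910-118402209 on the minus strand for Lgals3bp and chr11:78984875-78985174 on the minus strand for Lgals9. Capitals mark matches to any of 7 motifs searched on both strands.
Lgals3: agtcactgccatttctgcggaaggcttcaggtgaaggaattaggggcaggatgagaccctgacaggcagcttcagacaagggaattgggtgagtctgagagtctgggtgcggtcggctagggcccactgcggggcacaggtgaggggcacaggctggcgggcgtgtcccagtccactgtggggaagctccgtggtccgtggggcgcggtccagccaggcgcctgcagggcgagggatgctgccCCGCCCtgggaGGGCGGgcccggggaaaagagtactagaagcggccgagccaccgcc
Lgals3bp: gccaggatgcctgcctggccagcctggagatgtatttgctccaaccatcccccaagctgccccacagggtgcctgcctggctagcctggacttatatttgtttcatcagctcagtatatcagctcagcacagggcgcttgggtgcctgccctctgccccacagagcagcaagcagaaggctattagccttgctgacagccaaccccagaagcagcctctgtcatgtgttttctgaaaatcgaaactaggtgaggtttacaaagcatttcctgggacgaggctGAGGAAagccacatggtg
Lgals9: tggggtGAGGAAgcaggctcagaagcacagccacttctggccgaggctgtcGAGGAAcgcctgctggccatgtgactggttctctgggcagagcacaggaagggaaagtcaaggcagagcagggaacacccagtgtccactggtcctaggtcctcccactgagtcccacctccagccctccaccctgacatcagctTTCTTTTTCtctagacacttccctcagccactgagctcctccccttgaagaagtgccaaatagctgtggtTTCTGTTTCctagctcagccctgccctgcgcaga
Lgals3 holds the GC box GGGCGG at positions -7 (other strand) and 5, counted from the start site to the first base of the match. Lgals3bp holds GAGGAA, the core of sites of the macrophage factor PU.1, at 33. Lgals9 holds GAGGAA at -244 and -199, and the interferon-stimulated element GAAANNGAA at -54 and 17, both on the other strand. No match overlaps another. Of 32851 promoters of the same length, 35.7% hold GGGCGG, 28.3% GAGGAA and 8.56% GAAANNGAA. The searched letters of the TATA box (TATAAA, in 13.6% of promoters), STAT (TTCNNNGAA, 8.30%), AP-1 (TGANTCA, 7.81%) and C/EBP (TTGCNNAA, 10.8%) do not stand in these 3 windows. Matches are a description of the letters and were not tested against expression.

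At 75 days, before symptoms, none of the 4 genes passed, nor did any probe set (0%, 0 of 6737 by limma, with 664 at an unadjusted p under 0.05, none of them a galectin gene). Lgals1 read 289 on the G93A-SOD1 array, against 319 on the WT-SOD1 array and 331 on the nontransgenic array. It was the 1 member below all 4 disease-free arrays, as were 34.7% of the tested probe sets. Its log2 difference was -0.17 ± 0.13 SE (95% interval -0.48 to 0.15, adjusted p = 0.701). Lgals3bp read 89.3 on the G93A-SOD1 array, against 90.6 on the WT-SOD1 and 88.0 on the nontransgenic array, and Lgals9 read 151 on the G93A-SOD1 array, against 156 on the WT-SOD1 and 147 on the nontransgenic array. Both lay between the disease-free arrays of their age, with intervals of -0.31 to 0.31 for Lgals3bp and -0.37 to 0.37 for Lgals9, so that differences of these sizes were not detectable. Lgals3 was at the floor on all 3 arrays of this age, and no fold can be given.

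The G93A-SOD1 minus disease-free difference changed between the ages for 1 of the 3 genes counted, against 0.416% of all probe sets. For Lgals1 the difference was 1.34 ± 0.19 log2 units larger at 110 than at 75 days (SE, adjusted p = 0.0492), a value just inside the threshold. For Lgals3bp it was 0.98 ± 0.18 SE larger and did not pass (adjusted p = 0.116), and it did pass without the WT-SOD1 110-day array (adjusted p = 0.0417), without the nontransgenic 110-day array (0.0284) or with a spike-in term (0.0388). Lgals9 stood at 0.39 ± 0.22 SE (adjusted p = 0.955). Lgals3 has no value here, because both sides were at the floor at 75 days. With a floor at the 40th percentile, no filter on level, a filter on the mean level or arrays scaled to 1 median, 0 of the 3 passed.

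Within G93A-SOD1 cord 2 of the 3 genes counted rose between 75 and 110 days, against 1.1% of all probe sets. This comparison shares the 110-day G93A-SOD1 array with those above. Lgals1 was 2.64-fold higher at 110 than at 75 days (log2 difference 1.40 ± 0.15 SE, adjusted p = 0.00993) and Lgals3bp 1.88-fold (0.91 ± 0.15 SE, adjusted p = 0.0449). Lgals9 was 1.21-fold higher and did not pass (adjusted p = 0.687). Lgals3 was at least 2.67-fold higher at 110 than at 75 days, again through the array that admitted it. With a filter on the mean level, the higher floor or arrays scaled to 1 median 1 of the 3 passed, and with no filter on level 0 did.

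In disease-free cord none of the 4 genes passed between the ages, where 0.0148% of probe sets did (1 of 6737). The log2 differences, 110 minus 75 days, were 0.06 for Lgals1, -0.07 for Lgals3bp and -0.12 for Lgals9, and their 95% intervals ran from -0.20 to 0.31, from -0.32 to 0.18 and from -0.42 to 0.19. Lgals3 was at the floor on all 4 arrays.

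The WT-SOD1 transgene was compared with nontransgenic cord over both ages, and none of the 4 genes passed, against 0.104% of probe sets (7 of 6737). Lgals1 differed by -0.08, Lgals3bp by 0.003 and Lgals9 by 0.18 (SE 0.19 each, adjusted p = 1 each). For Lgals9 the WT-SOD1 array read 156 against 147 on the nontransgenic array at 75 days, and 153 against 127 at 110 days. This sets 1 array against 1 at each age, and the share of probe sets with the same order at both ages was not counted. The spread here rests on 1 residual degree of freedom pooled over all probe sets.

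**Figure D2:**
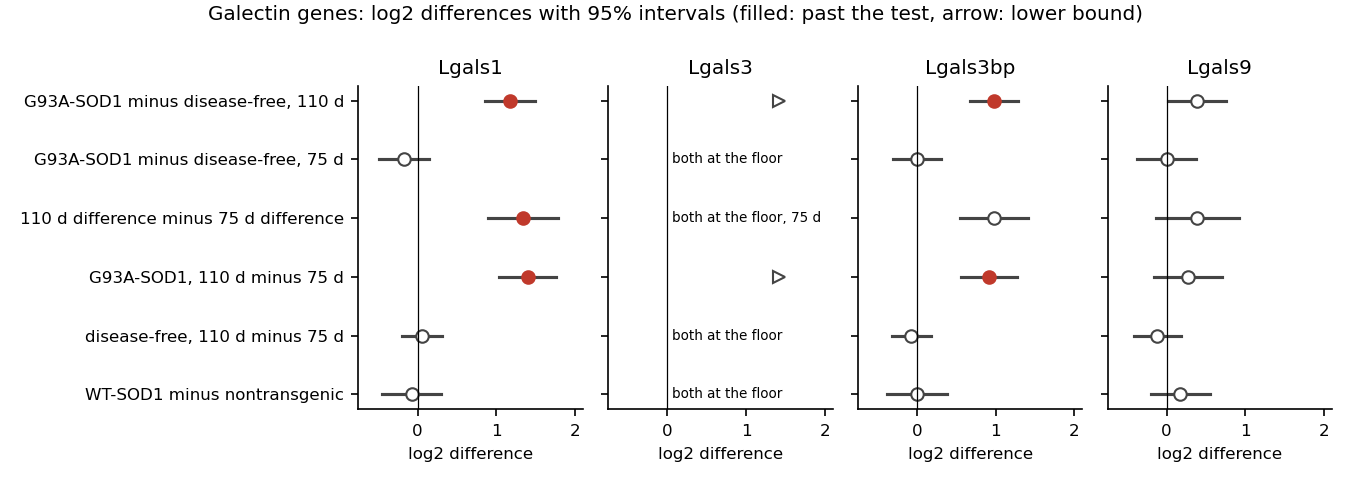
Log2 difference (horizontal axis) of each galectin gene in the 6 comparisons, with 95% intervals, filled where the limma test was passed. The filled points, of Lgals1 and Lgals3bp, lie at 0.91 to 1.40 in comparisons that hold the 110-day G93A-SOD1 array, arrows of Lgals3 are lower bounds (1.42) with no interval, and Lgals3 has no point where both sides were at the floor.

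Other galectins stayed dim. Of 6 listed, Lgals2 and Lgals4, known from the digestive tract, Lgals7, known from stratified epithelia, and Lgals8, another galectin of damaged vesicles, were measured, and none exceeded the pooled median on any array, so that 0 were tested. Lgals8 read 58.0 on the G93A-SOD1 array at 110 days and 45.0 at 75 days, against 60.1 and 57.1 in WT-SOD1 cord and 58.6 and 57.4 in nontransgenic cord. It was lowest on the 75-day G93A-SOD1 array, and at 110 days the G93A-SOD1 array lay below both disease-free ones. Lgals6 and Lgals12 were not analysed here.

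Galectins act through glycoproteins, and 44 receptors and ligands were listed, not all of them on the cell surface. Of these 39 were measured and 21 tested, 2 rose at 110 days and 0 fell, with a median log2 difference of 0.08. By limma 5 of the 21 had an unadjusted p under 0.05 at 110 days. Over all tested probe sets 1.38% rose. Cd68, a lysosomal glycoprotein of macrophages, read 390 on the G93A-SOD1 array at 110 days, against 83.4 on the WT-SOD1 and 74.6 on the nontransgenic array (4.95-fold, adjusted p = 0.00112). Cd9, a tetraspanin of the cell surface, read 437 on the G93A-SOD1 array, against 205 on the WT-SOD1 and 198 on the nontransgenic array (2.17-fold, adjusted p = 0.00869). For both, the 110-day G93A-SOD1 array lay above every disease-free array, as it did for 16.9% of the tested probe sets. Nrp1, a semaphorin co-receptor that galectin-1 binds, stood at a log2 difference of 0.73 (adjusted p = 0.0882), and Lamp2, a lysosomal membrane glycoprotein, at 0.78 (adjusted p = 0.253). Cd44, a glycoprotein receptor of hyaluronan, read 38.1 on the 110-day G93A-SOD1 array, against 20.4 to 25.4 on the disease-free arrays, too dim to be tested. At 75 days 0 of the 21 passed (1 at an unadjusted p under 0.05), with a median of 0.03.

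The enzymes that build galectin-binding sugar chains showed no calls. Of 25 listed genes 16 were measured and 11 tested, and 0 passed limma at 110 days (1 at an unadjusted p under 0.05), with a median of 0.08. Farthest from 0 were Mgat3, which adds the bisecting sugar that blocks further branching, at -0.53 (adjusted p = 0.247), and B4galt6, a galactosyltransferase of glycolipids, at -0.39 (adjusted p = 0.696). Sialyltransferases that cap galactose, and the enzymes that strip it, gave 0 calls among 12 tested of 16 listed (1 at an unadjusted p under 0.05), with a median of -0.10. Here Glb1, the lysosomal beta-galactosidase, stood at 0.31 (adjusted p = 0.484) and Cmas, which activates sialic acid, at -0.29 (adjusted p = 0.559). At 75 days both groups had 0 calls, with medians of -0.09 for the builders and -0.03 for the capping and stripping enzymes, and 0 and 1 genes at an unadjusted p under 0.05.

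Inside the cell, galectin-3 works with proteins of lysosome damage and of phagocytosis. Of 21 such genes 18 were measured and 12 tested, and 3 rose at 110 days with a median of 0.17. Of the 12, 4 had an unadjusted p under 0.05 by limma, and 1.38% of all tested probe sets rose. Tyrobp, the signalling adaptor of Trem2 and other microglial receptors, read 806 on the G93A-SOD1 array, against 164 on the WT-SOD1 and 140 on the nontransgenic array (5.30-fold, adjusted p = 0.000984). Ctsd, the lysosomal protease cathepsin D, read 3571 on the G93A-SOD1 array, against 1439 on the WT-SOD1 and 1430 on the nontransgenic one (2.49-fold, adjusted p = 0.00433). Ctsb, cathepsin B, read 2535 in G93A-SOD1 cord, against 1352 in WT-SOD1 and 1408 in nontransgenic cord (1.84-fold, adjusted p = 0.0235). Genes of autophagy in the same list did not pass: Sqstm1, an autophagy receptor, stood at 0.04 and Map1lc3b, a component of autophagosome membranes, at -0.33. At 75 days 0 of the 12 passed (1 at an unadjusted p under 0.05), with a median of 0.01. Trem2 was not analysed here.

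**Figure D3:**
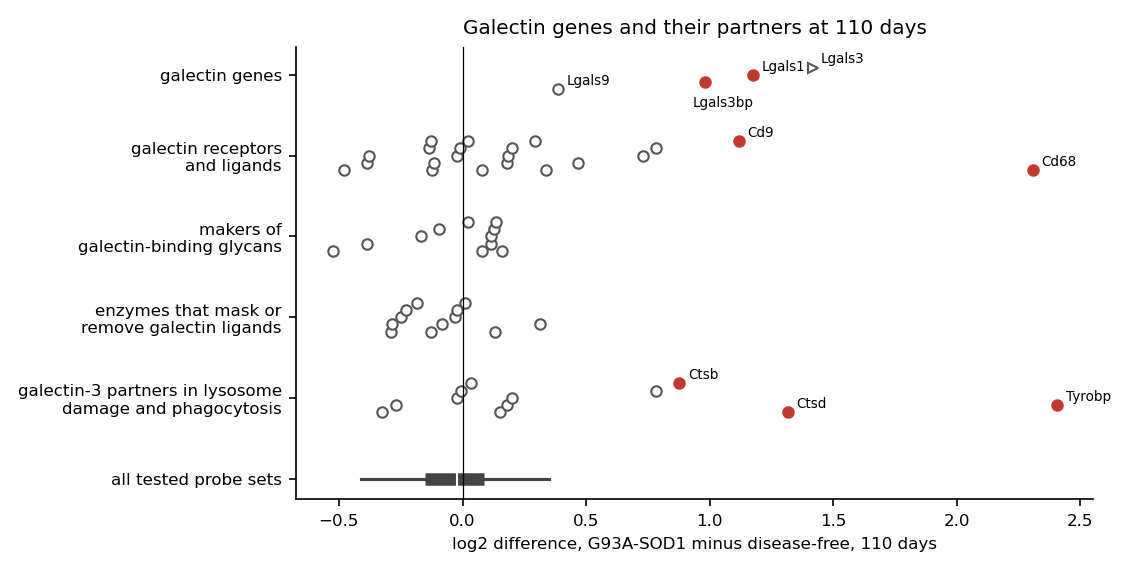
Log2 difference, G93A-SOD1 minus disease-free, at 110 days (horizontal axis) for the tested galectin genes and 4 groups of partner genes, 1 point per gene, filled and named where the test was passed (Lgals9 is named but open, and the open arrow of Lgals3 is a lower bound). The bottom row shows the 5th to 95th percentile (line), the 25th to 75th percentile (bar) and the median of all 6737 tested probe sets: 2 receptors and ligands and 3 galectin-3 partners were past the test, and 0 of the enzymes.

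Markers of microglia and macrophages, the cells for which galectin-3 is known, were high on the same array. Their 19 measured genes summed to 10895 on the G93A-SOD1 array at 110 days and 3227 at 75 days, against 2831 to 3398 on the disease-free arrays. At 110 days 13 of 15 tested rose and 0 fell, where 1.38% of all tested probe sets rose. Aif1, Cd53 and Lyz2 had entered the test only through that array, and 10 of the other 12 rose, among them Cd68 and Tyrobp of the lists above, C1qc at 1993 against 460 on the WT-SOD1 and 472 on the nontransgenic array, and Ctss at 1736 against 652 on the WT-SOD1 and 575 on the nontransgenic array. From the same list, Ptprc and Fcer1g were at the floor on all 6 arrays. Astrocyte markers, 11 measured, summed to 13789 on the G93A-SOD1 array at 110 days and 10129 at 75 days, against 9254 to 10508 on the disease-free arrays, and 2 of 10 tested rose (Gfap and Fabp7). Type I interferon response genes, 22 measured, summed to 5099 and 2897 on these G93A-SOD1 arrays, against 2942 to 3372 on the disease-free arrays, with 4 of 11 tested rising. Ifit3, Gbp3, Psmb8 and Tap1 had entered the test only through the 110-day G93A-SOD1 array, and of the other 7 genes 1 rose.

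The 13 neuronal marker genes summed to 10429 on the G93A-SOD1 array at 110 days and 12447 at 75 days, against 12468 to 15272 on the disease-free arrays, and 1 of the 13 fell, the neurofilament gene Nefm (log2 difference -0.82). The other 12 did not pass, among them the synaptic vesicle gene Syp at -0.02 and the growth cone gene Gap43 at 0.02. These 2 do not stand for the list: the 13 genes had a median log2 difference of -0.47 at 110 days. By limma 8 of the 13 had an unadjusted p under 0.05. Lymphocyte markers summed to 1251 on the G93A-SOD1 array at 110 days and 1349 at 75 days, against 1177 to 1284 on the disease-free arrays. None of 5 tested lymphocyte genes passed (0 at an unadjusted p under 0.05), and Cd3d, Cd3g and Cd8a were at the floor on every array. Neutrophil markers summed to 859 on the G93A-SOD1 array at 110 days and 869 at 75 days, against 832 to 930 on the disease-free arrays, with Mpo and Ly6g at the floor. Meningeal and fibroblast markers summed to 5877 on the G93A-SOD1 array at 110 days, against 5795 to 6545 on the disease-free arrays. Of 10 tested 2 rose, against 1.38% of all tested probe sets. The part of these cell types in the galectin values was not tested.

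**Figure D4:**
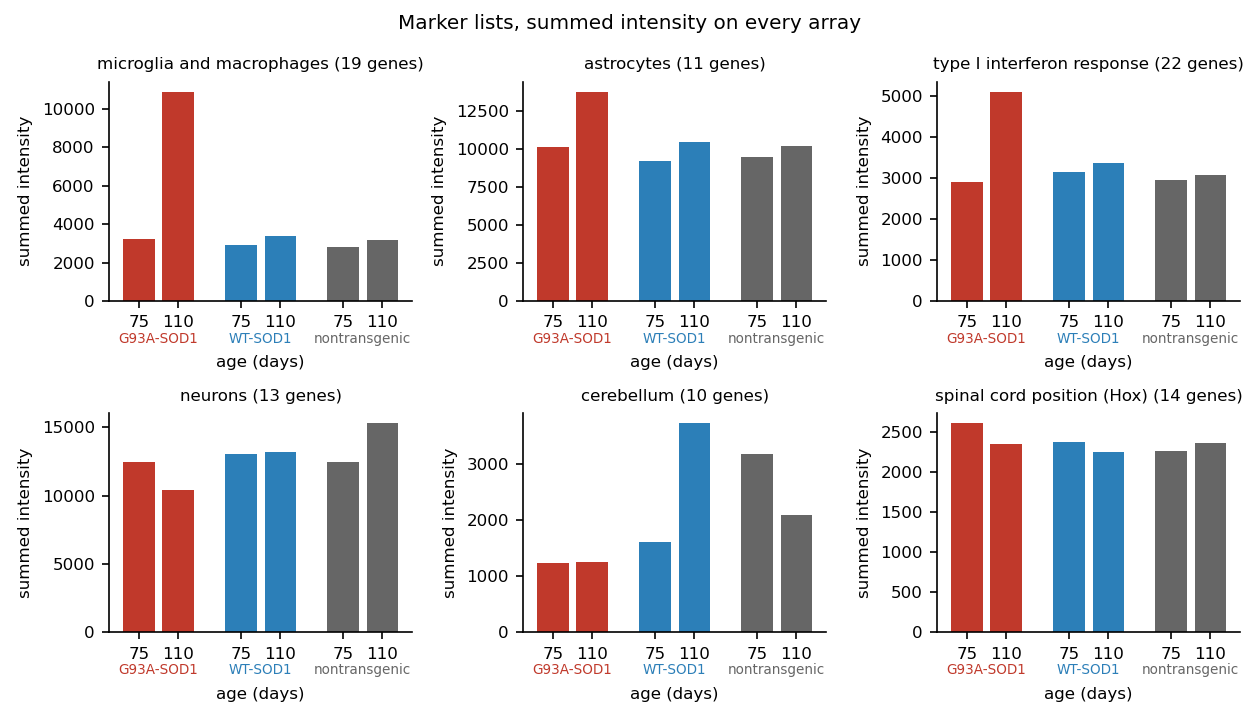
Summed deposited intensity (vertical axis, from 0) of 6 marker lists on each of the 6 arrays, by genotype and age in days, 1 bar per array. The microglia and macrophage bar of the 110-day G93A-SOD1 array reached 10895, against 2831 to 3398 on the disease-free arrays, while the cerebellar bars were highest for WT-SOD1 at 110 days (3733) and nontransgenic at 75 days (3191).

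The profile of a gene over the 6 arrays was compared with those of 5198 other genes for Lgals1, by the root mean square difference of mean-centred log2 values. All profiles share the same 6 arrays, and the likeness is a description. Lgals3 also spanned over 1 log2 unit, but its profile was set by the floor and no distance from it is given. Among the 4 nearest to Lgals1 were Mdfic, a regulator of transcription factors, at 0.06, Rnase4, a secreted ribonuclease, at 0.09, and the actin-binding calponin gene Cnn3 at 0.09. Mdfic read 85.5 on the G93A-SOD1 array at 110 days, against 34.2 to 37.8 on the other 5 arrays. Rnase4 read 82.65 on that array, against 31.9 to 38.9 on the other 5, close to the floor. Like Lgals3, Mdfic and Rnase4 passed the filter on level through that array alone. A high value there was thus required of them, and their likeness to Lgals1 is no independent observation. Cnn3, whose probe set can cross-hybridise, read 1669 on that array, against 551 to 651 on the other 5. In each of these genes the 110-day G93A-SOD1 array stood alone above the other 5 arrays. It did so in Lgals1 too, so choosing genes by likeness to Lgals1 selects for this pattern, also in Cnn3.

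**Figure D5:**
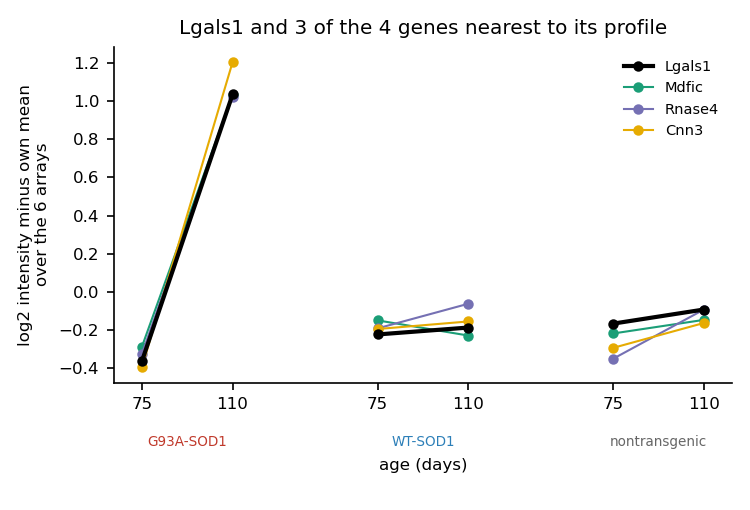
Log2 intensity, after the floor, minus the gene's own mean over the 6 arrays (vertical axis) for Lgals1 and 3 of the 4 genes nearest to it, by genotype and age in days, with lines joining the ages of a genotype. The points of the 110-day G93A-SOD1 array lie apart from all others, and the nearest gene, Mdfic, differs from Lgals1 by 0.06 (root mean square). Mdfic and Rnase4 passed the filter on level through the 110-day G93A-SOD1 array alone.

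Among the 3 members read above the floor on every array, Lgals1 and Lgals3bp were closest in profile, with a root mean square difference of 0.15 log2 units. Lgals9 differed from Lgals3bp by 0.25 and from Lgals1 by 0.38. It was the flattest of the 3, with a span of 0.52 log2 units over the 6 arrays, against 1.40 for Lgals1 and 1.00 for Lgals3bp.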

How the data were processed

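The authors deposited 1 linear intensity per probe set and array, for 12488 probe sets on 6 arrays. Per the labels' protocols, the poly(A) fraction of Trizol-extracted RNA from 4 cords was made into biotin-labelled cRNA for 1 hybridisation per array. The summary of probes and the scaling of arrays are not given in the sources used here. A different summary could shift dim values most. The 66 control probe sets were left out of the tests. Gene symbols came from the platform annotation, checked against RefSeq genes of GRCm38.p6: 10833 probe sets had 1 symbol (10817 matched, 0 changed), 396 several and 1193 none here.

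The deposited values were used without rescaling, floored and taken to log2. Tests used limma 3.58.1 (lmFit, eBayes) in R 4.3.3 with Benjamini-Hochberg adjustment at 0.05, on 4 means: G93A-SOD1 at 75 and 110 days and disease-free at 75 and 110 days. The fit had 2 residual and 5.13 prior degrees of freedom (prior SD 0.12 on the log2 scale). For WT-SOD1 against nontransgenic, the 4 arrays of these genotypes were fitted with a term for age. Fold values are powers of base 2 of log2 differences. Tables and figures used Python 3.11.15, pandas 2.3.3 and matplotlib 3.10.9. The fits were tested on simulated data.

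The members, the gene lists and the tests were chosen with earlier results of these data known. Named genes are the members, Sod1, partner genes past the test (up to 6 per list, or the 2 farthest from 0), the 4 nearest profiles of members spanning over 1 log2 unit, and up to 2 bright markers per list. Of the 4 nearest profiles of Lgals1, 1 gene is not reported here, and those of Lgals3 are not given because its profile is set by the floor. Nrp1, Lamp2, Cd44, Lgals8, Sqstm1, Map1lc3b, Fabp7, Nefm, Syp, Gap43, markers named for how they entered the test and markers named for lying at the floor were named after their values were seen. The alternatives were another floor, other filters, other scalings, arrays left out, added terms and the other probe set.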

Additional observations from a re-analysis of the deposited data

Results flagged for a closer look

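The difference between G93A-SOD1 and disease-free cord itself differed between 110 and 75 days for Lgals1, by the limma test of that change. The change was 1.34 log2 units (adjusted p = 0.0492), with a difference of 1.17 at 110 days and -0.17 at 75 days, and 1 of the 3 genes counted passed. It rests on 1 G93A-SOD1 array per age. It did not pass with the higher floor, no filter on level, a filter on the mean level or arrays scaled to 1 median. No genotype and age had enough arrays to look for a deviating one.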

How the results depend on the processing

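Counts of genes leave out Lgals3. Of 195 tested values of the other 3 genes under the alternatives, 165 kept their direction and their side of the threshold. Of 24 values without a test, 22 moved by less than 1 standard deviation and 3, all near 0, had the other sign. The number of genes past the test at 110 days was 2, and 0 with no filter on level, where Lgals1 stood at 1.17 and Lgals3bp at 0.98 without passing. With a floor at the 40th percentile Lgals3 stood at 0.55 and did not pass. Lgals9 stood at 0.52 against nontransgenic arrays only and at 0.25 against WT-SOD1 arrays only, and leaving out 1 array in turn gave 0.25 to 0.52. Over its alternatives the adjusted p at 110 days ran from 0.000268 to 0.135 for Lgals1, from 0.00308 to 0.0696 for Lgals3bp and from 0.0472 to 0.832 for Lgals9. The change between ages held for 1 gene, for 0 with the 40th-percentile floor, no filter, the filter on the mean level or arrays scaled to 1 median, for 2 with the spike-in term, and for 1 to 2 with 1 array left out. Within G93A-SOD1 cord 2 genes passed between the ages, 1 with the higher floor, the filter on the mean level or arrays scaled to 1 median, and 0 with no filter. A stricter or absent filter changes how many probe sets are adjusted over and the pooled spread. With no filter the SE at 110 days fell from 0.13 to 0.062 for Lgals1 and from 0.13 to 0.031 for Lgals3bp. Their differences stayed the same and their adjusted p rose. Why calls were lost was not tested.

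Differences near 0 changed sign. In the values below for the 4 arrays with low cerebellar markers, the disease-free side is 1 mean of both ages. At 75 days Lgals3bp stood at 0.0245 with arrays scaled to 1 median, 0.0214 with quantile normalization, 0.0011 with a WT-SOD1 term and 0.0154 on the 4 arrays with low cerebellar markers, and at -0.0212 to 0.0205 with 1 array left out. Lgals9 at 75 days stood at 0.0240 with 1 median, 0.0377 with quantile normalization, 0.0867 with a WT-SOD1 term, 0.0499 with a spike-in term, 0.103 on the 4 arrays with low cerebellar markers and 0.0885 by its other probe set, and at -0.0433 to 0.0416 with 1 array left out. Between WT-SOD1 and nontransgenic cord Lgals3bp stood at -0.0158 with 1 median and -0.0158 with quantile normalization. Between the ages of disease-free cord Lgals9 ran from -0.249 to 0.0158 with 1 array left out.

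Over all probe sets the 102 calls at 110 days became 66 with the higher floor, 42 with no filter, 225 with the spike-in term, 131 on the 4 arrays with low cerebellar markers, 591 without the WT-SOD1 110-day array and 194 without the nontransgenic one. The 0 calls at 75 days became 50 with no filter, 54 with the WT-SOD1 term and 13 to 116 with 1 array left out. The 28 calls for the change between ages ran from 2 to 135. The 74 within G93A-SOD1 cord ran from 37 to 274, and the 1 between disease-free ages from 0 to 17. The 7 for WT-SOD1 became 0 with the higher floor, no filter, 1 median or quantile normalization. By Pearson correlation 2 of the 4 nearest profiles were shared for Lgals1. Signal near the floor limits Lgals3: 24.6% to 25.9% of an array's probe sets had no value above it. No paired analysis was possible because the labels carry no replicate numbers and each genotype and age has 1 array.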
